A study of Mus musculus with 9 samples.

Results

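Elastic fibre and crosslinking genes encode elastin, the proteins of the microfibrils on which it is laid down, and the enzymes that crosslink it. Of 10 listed genes, 8 had a probe set that the platform annotation assigns to that gene alone, out of 18194 genes named in this way. The members were all probe sets with 1 of those 8 symbols, 15 of the 45101 in the table. Of these, 11 exceeded the array-wide median signal on 3 or more of the 9 arrays and entered the tests, with at least 1 for each of the 8 genes, while 4 were dimmer and are described only. Fbn1, the main fibrillin, and Loxl2, a lysyl oxidase, were listed too, but no probe set carried either symbol alone, and neither is counted among the 8.

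The arrays hold RNA of homogenised lungs from 9 female C57BL/6 mice aged 14 weeks, 1 mouse per array. Every mouse had received a replication-deficient adenovirus into the trachea 14 days earlier. The virus carried mouse IL-4 in the 3 AdV-IL4 mice, its splice variant IL-4d2 in the 3 AdV-IL4d2 mice, and no cytokine gene in the 3 AdV-NULL mice. The sources used here do not name the promoter in front of the cytokine gene. Virus without a cytokine gene is the only background, so lungs without any virus were not compared.

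In elastic fibres, an elastin core is deposited on a scaffold of fibrillin microfibrils, to which further glycoproteins attach. Lysyl oxidases then modify lysines of the elastin precursor, and the crosslinks that form make the fibre insoluble and elastic. Lung fibroblasts, smooth muscle cells, endothelium and mesothelium are known sources of these proteins, whose fibres give alveoli, airways and vessels their recoil and are made mostly during growth. IL-4 is a type 2 cytokine, and the comparisons ask which of these genes differed with each form of it.

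In AdV-IL4 lungs, 4 of the 8 genes rose against AdV-NULL lungs (10.7% of all 23824 tested probe sets were called): the elastin gene Eln, the latent TGF-beta binding protein gene Ltbp2, the lysyl oxidase gene Lox and the microfibril-associated gene Mfap4. In AdV-IL4d2 lungs, 3 rose against AdV-NULL lungs (1.32% of all), namely Eln, Ltbp2 and Lox. The 2 genes Eln and Ltbp2 were higher in AdV-IL4 than in AdV-IL4d2 lungs (1.75% of all), whereas Lox differed between the cytokine forms by less than its error. A call is a limma adjusted p under 0.05 over all probe sets. The Mfap4 call was kept in 6 of 9 fits with 1 array left out, and a dimmer tested Lox probe set was not called with either form. Against AdV-NULL all 8 differences were positive with either form, though some were near 0, such as Fbln5 with AdV-IL4d2 (0.02 ± 0.14). When arrays were scaled to bacterial control transcripts instead, the AdV-IL4 differences of Emilin1, Mfap5, Fbln5 and Loxl1 turned negative. The Lox and Mfap4 calls with AdV-IL4 were lost there too. As whole lungs were measured, more cells of a type and more RNA per cell cannot be told apart.

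Signals are MAS5 intensities on a linear scale, scaled by the authors to 1 trimmed mean per array, and array medians lay between 156 and 171. Il4 itself had signals of 379, 301 and 335 in AdV-IL4 mice, 1172, 944 and 499 in AdV-IL4d2 mice, and 43.1, 15.8 and 71.6 in AdV-NULL mice. This checks the labels of the cytokine groups against AdV-NULL, but does not show which form a mouse received. Markers of lung epithelium summed to 180453 to 194933 in AdV-IL4, 168264 to 187927 in AdV-IL4d2 and 150805 to 211440 in AdV-NULL lungs, as the label lung asks. Markers of heart and skeletal muscle summed to 1992 to 8523 in AdV-IL4, 6957 to 23353 in AdV-IL4d2 and 17142 to 86292 in AdV-NULL lungs, and 8 of the 11 tested fell with AdV-IL4 against AdV-NULL, as did 2 of 3 fat markers. Their part in the rises of the members was not tested. The highest muscle sum was that of AdV-NULL mouse 1 and the lowest that of AdV-IL4 mouse 2, and without both arrays 1 of the 11 and 1 of the 3 fell. As these arrays are the extremes of that sum, leaving them out had to shrink the muscle difference, and it also leaves fewer arrays. Results are also given without these 2 arrays where a call changes.

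Counting higher calls alone, the background shares were 5.6% for AdV-IL4 against AdV-NULL, 0.928% for AdV-IL4d2 against AdV-NULL and 0.911% for AdV-IL4 against AdV-IL4d2, beside 4, 3 and 2 of the 8 genes. The median log2 difference of the 8 genes was 0.57, 0.22 and 0.24 in the 3 comparisons, where that of all tested probe sets was −0.00 each time. The comparisons against AdV-NULL share their 3 control arrays. The 2546 calls for AdV-IL4 against AdV-NULL numbered 1313 without AdV-NULL mouse 1 and 1696 without AdV-NULL mouse 3. The 314 for AdV-IL4d2 numbered 200 and 189 without those arrays, and 187, 163 and 156 without AdV-IL4d2 mouse 1, 2 or 3. The 416 between the cytokine forms numbered 224 without AdV-IL4 mouse 2, and 186, 190 and 110 without AdV-IL4d2 mouse 1, 2 or 3.

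Directions depend on what the arrays are scaled to. Bacterial control transcripts, added in fixed amounts, were brighter on AdV-IL4 arrays. Scaling to the 18 probe sets of the hybridisation controls moved the median of all probe sets by −0.43 for AdV-IL4 against AdV-NULL, and scaling to the poly-A controls by −0.64 (−0.77 without the trpn control). For AdV-IL4d2 against AdV-NULL these shifts were 0.08, 0.26 and 0.27, and for AdV-IL4 against AdV-IL4d2 −0.52, −0.90 and −1.04. The first comparison then split into 295 higher and 7156 lower calls, 208 and 14494, or 152 and 17971, against 1335 and 1211 as deposited. For AdV-IL4d2 against AdV-NULL the poly-A scalings gave 517 higher and 57 lower or 469 and 50, against 221 and 93. Between the cytokine forms the splits were 89 and 11074, 44 and 21313, and 33 and 22470, against 217 and 199. Every direction below is relative to the typical probe set. An error in the control signals of an array is shared by all its probe sets, and limma's adjusted p does not allow for it. Calls and adjusted p under these scalings, here and below, are therefore descriptions only. Relative to the shifted median, Eln with AdV-IL4 against AdV-NULL lay between 2.28 and 2.30 in these scalings, and Ltbp2 between 1.65 and 1.66. Each scaling multiplies all signals of an array by the same factor. These values therefore had to return near the deposited 2.31 and 1.67 and do not test stability.

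**Figure D1:**
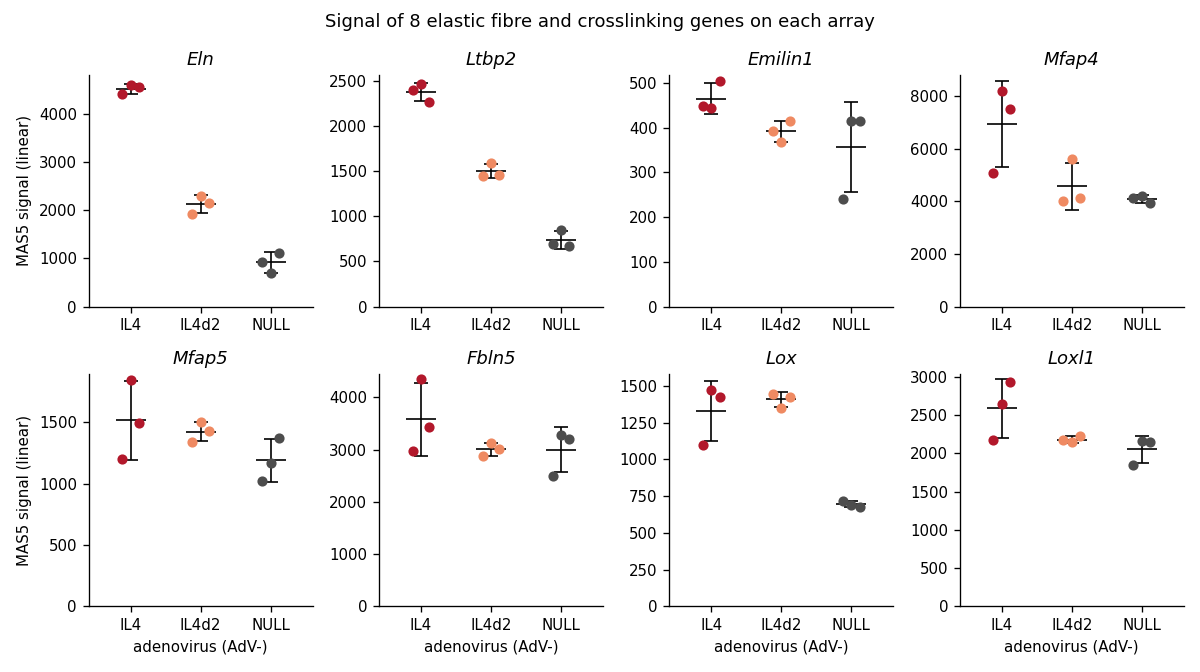
MAS5 signal (linear scale, from 0) of the probe set that stands for each of the 8 genes on each of the 9 arrays, grouped by adenovirus. Points are mice, and horizontal lines with bars are the group mean ± SD (n = 3). Eln and Ltbp2 differ between all 3 groups without overlap, with Eln means of 4512 in AdV-IL4, 2123 in AdV-IL4d2 and 915 in AdV-NULL mice, and Ltbp2 means of 2375, 1499 and 739 in the same order. Lox stands at 1331 and 1408 in the cytokine groups, against 695 in AdV-NULL mice.

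Eln encodes tropoelastin, the precursor of the fibre core. Its signal was 4403, 4586 and 4547 in AdV-IL4 mice 1 to 3, 1920, 2297 and 2153 in AdV-IL4d2 mice, and 922, 703 and 1121 in AdV-NULL mice. Every AdV-IL4 mouse lay above every AdV-IL4d2 mouse, and every AdV-IL4d2 mouse above every AdV-NULL mouse. Group means were 4512 ± 96.3 in AdV-IL4, 2123 ± 190 in AdV-IL4d2 and 915 ± 209 in AdV-NULL lungs (SD, n = 3 each). Eln rose 4.95-fold with AdV-IL4 (2.31 ± 0.14 on the log2 scale, limma adjusted p = 3.28e-06), and by 2.33-fold with AdV-IL4d2 (1.22 ± 0.14, adjusted p = 0.00065), where the error of each log2 difference is its standard error. The difference between the cytokine forms was 1.09 ± 0.14 (limma adjusted p = 0.00299), with a 95% interval of 0.78 to 1.39, so that Eln was 2.12-fold higher with AdV-IL4. On the log2 scale the AdV-IL4d2 difference was 52.9% of the AdV-IL4 difference. Both rises against AdV-NULL kept their call in each of the 9 fits with 1 array left out and in each scaling. The difference between the forms held in the 9 fits too, but under the poly-A scalings it was 0.16 and 0.01 and was not called (0.55 and called with the hybridisation controls). A dimmer Eln probe set was above the array median on 1 of 9 arrays. It read 40.3, 150 and 229 in AdV-IL4 mice, 150, 17.2 and 16.4 in AdV-IL4d2 mice, and 26.1, 66.9 and 28.2 in AdV-NULL mice, with overlapping groups.

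A further 4 members belong to the microfibrils or their surface. Ltbp2, which binds fibrillin microfibrils and, despite its family name, is not known to bind latent TGF-beta, had 1 probe set. Its signal was 2394, 2463 and 2267 in AdV-IL4 mice, 1449, 1589 and 1460 in AdV-IL4d2 mice, and 693, 850 and 674 in AdV-NULL mice. The groups were ordered as for Eln and did not overlap. Ltbp2 rose 3.18-fold with AdV-IL4 (1.67 ± 0.10 on the log2 scale, limma adjusted p = 3.44e-06), and by 2.01-fold with AdV-IL4d2 (1.01 ± 0.10, adjusted p = 0.000224). It was 1.58-fold higher with AdV-IL4 than with AdV-IL4d2 (0.66 ± 0.10, 95% interval 0.44 to 0.88, adjusted p = 0.00802). The last call was lost without AdV-IL4d2 mouse 3 (0.64, adjusted p = 0.0507) and under the control scalings, where the difference was 0.12 with the hybridisation controls and turned to −0.26 and −0.41 with the poly-A controls.

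The 300 bases around the RefSeq start of Ltbp2 (GRCm38.p6, chr12:84876442-84876741, minus strand) are shown because Ltbp2 rose with both cytokine forms and its promoter was in the sequence table used. Capitals mark CAGAC, the short element that SMAD proteins bind, or its reverse complement. Both strands were searched, and no match overlaps another.
Ltbp2 promoter: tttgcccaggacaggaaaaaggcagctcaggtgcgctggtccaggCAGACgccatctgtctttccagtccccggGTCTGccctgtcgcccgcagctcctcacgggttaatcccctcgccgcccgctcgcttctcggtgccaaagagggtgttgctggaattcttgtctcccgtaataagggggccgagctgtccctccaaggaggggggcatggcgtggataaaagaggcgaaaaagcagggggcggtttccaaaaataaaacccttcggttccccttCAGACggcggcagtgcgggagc
It held 3 matches, which begin at −205, −176 and 28 relative to the start site. Of 32851 RefSeq promoter windows of this length, 49.6% held at least 1 match. The search also covered TTC and GAA separated by 4 bases, the spacing that STAT6 prefers, the same pair separated by 3 bases, and TATAAA, which occurred in 6.95%, 8.30% and 13.6% of the windows and not in this one. Promoter windows were at hand for 4 of the 10 listed genes. That of Emilin1 held 2 CAGAC matches, those of Fbln5 held 1 and 2, and that of Fbn1 held 0. Emilin1 and Fbln5 were not called, and the part of this element in the rise of Ltbp2 was not tested.

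Mfap4, a microfibril-associated glycoprotein that binds elastin and collagen, had signals of 5098, 8201 and 7532 in AdV-IL4 mice, 4013, 5601 and 4118 in AdV-IL4d2 mice, and 4120, 4211 and 3923 in AdV-NULL mice. All AdV-IL4 mice lay above all AdV-NULL mice, while AdV-IL4d2 mouse 2 reached past AdV-IL4 mouse 1. Mfap4 rose 1.66-fold with AdV-IL4 (log2 difference 0.73 ± 0.17, limma adjusted p = 0.0159), a difference that was 0.29, 0.08 and −0.06 under the hybridisation and the 2 poly-A scalings and was called in none of them. The call was lost without AdV-NULL mouse 3 (0.71), AdV-IL4 mouse 2 (0.60) or AdV-IL4 mouse 3 (0.66), and without both AdV-NULL mouse 1 and AdV-IL4 mouse 2 (0.61, adjusted p = 0.101). With AdV-IL4d2 the difference was 0.15 ± 0.17 (adjusted p = 0.747). The difference between the cytokine forms was 0.59 ± 0.17 with an adjusted p of 0.103, and it was called without AdV-IL4 mouse 1 (0.79). In the poly-A scaling without trpn it was called in the opposite direction (−0.49, adjusted p = 0.0392). The median of all tested probe sets moved by −1.04 there, and relative to that median Mfap4 lay at 0.55.

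Mfap5, a small protein that binds fibrillin, had signals of 1204, 1848 and 1494 in AdV-IL4 mice, 1342, 1499 and 1427 in AdV-IL4d2 mice, and 1023, 1167 and 1375 in AdV-NULL mice. The groups overlapped. Its log2 differences against AdV-NULL were 0.34 ± 0.15 with AdV-IL4 and 0.27 ± 0.15 with AdV-IL4d2 (limma adjusted p = 0.175 and 0.45). A dimmer Mfap5 probe set gave 423, 578 and 453 in AdV-IL4 mice, against 278, 323 and 399 in AdV-NULL mice. On it the difference was 0.52 ± 0.17, with groups that did not overlap and an adjusted p of 0.0715.

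Emilin1, a glycoprotein at the interface of elastin and microfibrils, had signals of 447, 443 and 505 in AdV-IL4 mice, 393, 368 and 414 in AdV-IL4d2 mice, and 241, 415 and 415 in AdV-NULL mice. AdV-NULL mouse 1 was far below the other controls, and without it the difference of AdV-IL4 from AdV-NULL was 0.16 in place of 0.41 ± 0.18 (adjusted p = 0.188 with all arrays). With AdV-IL4d2 the difference was 0.17 ± 0.18, and −0.08 without that control. A second Emilin1 probe set was below the array median on all 9 arrays, at 19.5 to 27.1 in AdV-IL4, 32.3 to 35.7 in AdV-IL4d2 and 25.6 to 63.2 in AdV-NULL mice.

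Fbln5 encodes fibulin-5, which ties tropoelastin to microfibrils and is needed for fibre assembly in mice. Its signal was 2965, 4347 and 3426 in AdV-IL4 mice, 2884, 3134 and 3007 in AdV-IL4d2 mice, and 2499, 3280 and 3204 in AdV-NULL mice. All 3 groups overlapped. The log2 difference was 0.25 ± 0.14 with AdV-IL4 (limma adjusted p = 0.279) and 0.02 ± 0.14 with AdV-IL4d2 (adjusted p = 0.974). The intervals, −0.05 to 0.55 and −0.28 to 0.32, exclude a change of the size seen for Eln. Without both AdV-NULL mouse 1 and AdV-IL4 mouse 2 the AdV-IL4 difference was −0.02. In the poly-A scaling without trpn it was called lower (−0.55, adjusted p = 0.0321). The median of all tested probe sets moved by −0.77 there, and relative to that median Fbln5 lay at 0.22. A dimmer Fbln5 probe set was below the array median on all arrays.

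The crosslinking enzymes were measured by Lox and Loxl1. Lox had signals of 1098, 1472 and 1424 in AdV-IL4 mice, 1447, 1352 and 1426 in AdV-IL4d2 mice, and 716, 692 and 677 in AdV-NULL mice. Both cytokine groups lay wholly above the controls and overlapped with each other. Lox rose 1.88-fold with AdV-IL4 (0.91 ± 0.11 on the log2 scale, limma adjusted p = 0.000524), and by 2.003-fold with AdV-IL4d2 (1.002 ± 0.11, adjusted p = 0.0006). The difference between the forms was −0.09 ± 0.11 (adjusted p = 0.734), and its 95% interval of −0.34 to 0.15 on this probe set excludes the differences that Eln and Ltbp2 showed. Both rises were kept in all 9 fits with 1 array left out. Under the control scalings the AdV-IL4 difference was 0.47, 0.26 and 0.13 and was not called, and Lox was then lower with AdV-IL4 than with AdV-IL4d2, by −0.62, −1.01 and −1.15 (adjusted p = 0.0225, 0.000116 and 1.36e-05). These adjusted p do not allow for the shared error of the scalings. The median of all tested probe sets between the forms moved by −0.52, −0.90 and −1.04 there. Relative to that median Lox lay at −0.10, −0.11 and −0.11, so the fall is mostly the general shift.

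A second tested Lox probe set read 278, 487 and 523 in AdV-IL4 mice, 398, 274 and 382 in AdV-IL4d2 mice, and 196, 295 and 237 in AdV-NULL mice. AdV-IL4 mouse 1 and AdV-IL4d2 mouse 2 lay below AdV-NULL mouse 2 on it. Its differences of 0.75 ± 0.24 with AdV-IL4 and 0.51 ± 0.24 with AdV-IL4d2 had limma adjusted p of 0.0641 and 0.359, so the Lox calls rest on the brighter probe set. Between the forms it gave 0.25 ± 0.24 with a 95% interval of −0.27 to 0.76, which includes the Ltbp2 difference. With the mean of both, the AdV-IL4d2 difference was 0.75 and its adjusted p 0.0522. The third Lox probe set was dim on all arrays.

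Loxl1, the lysyl oxidase that acts on elastin together with fibulin-5, had signals of 2172, 2652 and 2940 in AdV-IL4 mice, 2168, 2145 and 2225 in AdV-IL4d2 mice, and 1848, 2162 and 2149 in AdV-NULL mice. AdV-IL4 mouse 1 stood only just above the highest control. The log2 difference with AdV-IL4 was 0.32 ± 0.11 (limma adjusted p = 0.0858), and it was called in 1 of 9 fits with an array left out, that without AdV-IL4 mouse 1 (0.44, adjusted p = 0.0195). With AdV-IL4d2 it was 0.09 ± 0.11 (adjusted p = 0.775). A dimmer Loxl1 probe set gave 0.48 ± 0.29 and −0.13 ± 0.29 (adjusted p = 0.318 and 0.882).

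**Figure D2:**
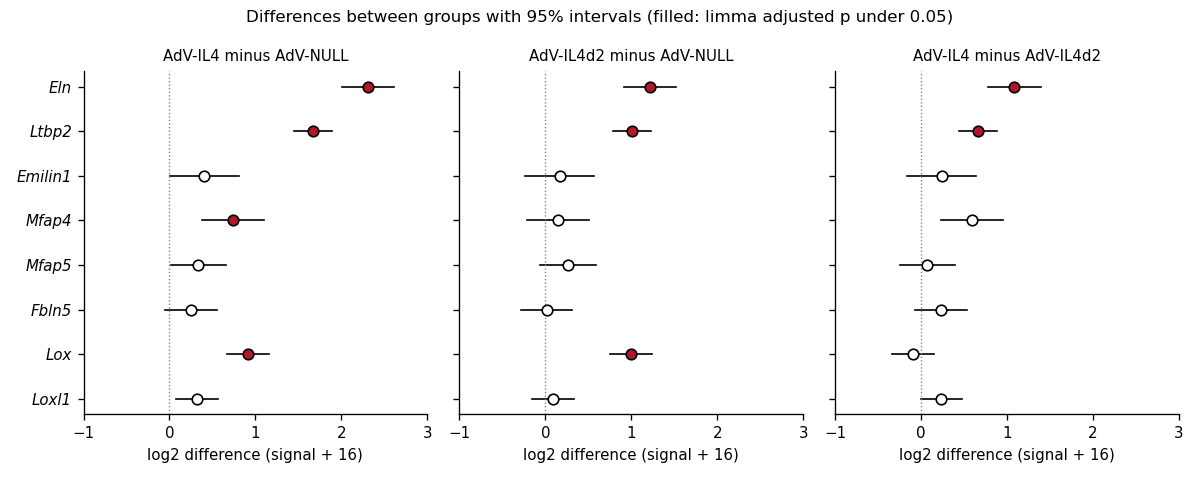
Log2 differences (signal + 16) of the 8 genes in the 3 comparisons, with 95% intervals of the fit as horizontal lines. Filled points passed limma's adjusted p of 0.05: Eln, Ltbp2, Mfap4 and Lox for AdV-IL4 minus AdV-NULL, Eln, Ltbp2 and Lox for AdV-IL4d2 minus AdV-NULL, and Eln and Ltbp2 between the cytokine forms. Scaled to poly-A controls, the median probe set moves by −0.64 for AdV-IL4 minus AdV-NULL, and without trpn Mfap4 reaches −0.06.

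Among the 8 genes, the groups did not overlap and AdV-IL4 was higher than AdV-NULL in 6, against 14.5% of all tested probe sets. That held for 3 genes in AdV-IL4d2 against AdV-NULL and for 3 in AdV-IL4 against AdV-IL4d2, against 10.6% and 11% of all probe sets. AdV-NULL mouse 1 gave the lowest of the 9 signals for Fbln5, Loxl1, Mfap5 and Emilin1, the 4 genes that were not called. Its markers of heart and skeletal muscle were the highest, and their part in these low values was not tested.

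The 5 genes whose signal was most like that of Eln over the 9 arrays, by Pearson correlation of log2(signal + 16) among 11568 named genes that are no members, were Mcf2l, Lipa, Tubb2a, Syvn1 and Oip5os1. Their coefficients ran from 0.957 to 0.964. The arrays fall into 3 groups, so the coefficients largely repeat the order of the group means. The differences of these genes were smaller than those of Eln, at 0.27 to 0.78 with AdV-IL4 and 0.15 to 0.43 with AdV-IL4d2 on the log2 scale. Tubb2a, a beta-tubulin, averaged 4438 ± 394 in AdV-IL4, 3736 ± 60.2 in AdV-IL4d2 and 2772 ± 177 in AdV-NULL lungs (SD, n = 3 each).

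Other genes of elastic fibres, their crosslinking and the TGF-beta factors tied to them were counted from a list of 37, of which 27 could be tested. With AdV-IL4, 2 rose, 2 fell and 23 were not called against AdV-NULL, with a median log2 difference of 0.06. Of all tested probe sets 10.7% were called. Under the control scalings none rose and 8, 16 and 19 fell. The same scalings moved the median of all tested probe sets by −0.43, −0.64 and −0.77. Lower calls became more frequent among all probe sets too, so these falls are not particular to the list. With AdV-IL4d2 limma called none of the 27 against AdV-NULL, where 2 had an unadjusted p under 0.05. Fn1, the fibronectin gene on whose matrix microfibrils assemble, averaged 6921 ± 722 in AdV-IL4 and 4412 ± 106 in AdV-NULL lungs (SD, n = 3 each). It rose 1.56-fold (log2 difference 0.64, limma adjusted p = 0.00117), and was −0.02 and −0.15 under the poly-A scalings. In AdV-IL4d2 lungs Fn1 averaged 4555 ± 252, and the difference between the forms of 0.60 was called (adjusted p = 0.00632), turning to −0.33 and −0.48 under those scalings.

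Adamtsl2, a secreted protein that binds fibrillin and latent TGF-beta binding proteins, averaged 1770 ± 240 in AdV-IL4 and 1014 ± 175 in AdV-NULL lungs (SD, n = 3 each). It rose 1.74-fold (limma adjusted p = 0.0125). Adamtsl5, of the same family, was 1.74-fold lower in AdV-IL4 lungs (adjusted p = 0.0135), and Mmrn1, a multimerin of the emilin family, 1.49-fold lower (adjusted p = 0.0475). The Mmrn1 call was kept in 2 of 9 fits with 1 array left out. Its log2 difference of −0.57 was −0.40 without AdV-NULL mouse 1, −0.59 without AdV-NULL mouse 3, −0.53 and −0.48 without AdV-IL4 mouse 2 or 3, and −0.57 without any AdV-IL4d2 mouse, all uncalled. Without both AdV-NULL mouse 1 and AdV-IL4 mouse 2, Adamtsl2 was at 0.66 and Adamtsl5 at −0.81, and neither was called, nor was Mmrn1 at −0.36. In that fit 1 of the 27 genes rose, Fn1, and 1 fell, Tgfb2 (−0.53, limma adjusted p = 0.0453), which was not called with all arrays.

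Several close relatives of the members did not pass the test. Among them the crosslinking enzyme Loxl3 had a log2 difference of 0.23 with AdV-IL4, the microfibril gene Mfap2 0.21, the fibulin genes Fbln1 and Fbln2 −0.33 and −0.36, and Ltbp1, Ltbp3 and Ltbp4 0.06, 0.36 and −0.28. The TGF-beta genes Tgfb1, Tgfb2 and Tgfb3 had 0.30, −0.26 and −0.28, with limma adjusted p of 0.421, 0.288 and 0.193.

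Elastin is cut by several proteases, and 12 genes of a list of 18 such enzymes and their inhibitors could be tested. With AdV-IL4, 6 rose and none fell against AdV-NULL, where 5.6% of all tested probe sets were called higher. Under the control scalings 3, 3 and 2 rose and 3, 5 and 5 fell. The same scalings moved the median of all tested probe sets by −0.43, −0.64 and −0.77, and lower calls became more frequent among all of them. With AdV-IL4d2 limma called none as deposited, where 3 had an unadjusted p under 0.05, and 2 or 3 rose under the control scalings. Mmp12, the macrophage elastase, averaged 4458 ± 913 in AdV-IL4, 288 ± 69.5 in AdV-IL4d2 and 240 ± 135 in AdV-NULL lungs (SD, n = 3 each). It rose 18.8-fold with AdV-IL4 (limma adjusted p = 8.50e-06) and had a ratio of 1.27 with AdV-IL4d2 (adjusted p = 0.648), with a difference between the forms of 3.89 on the log2 scale (adjusted p = 0.000123).

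Ctss, the gene of the elastin-cutting cathepsin S, averaged 29328 ± 1710 in AdV-IL4, 14650 ± 3724 in AdV-IL4d2 and 8860 ± 2065 in AdV-NULL lungs (SD, n = 3 each). It rose 3.36-fold with AdV-IL4 (limma adjusted p = 0.000179), and its ratio of 1.64 with AdV-IL4d2 had an adjusted p of 0.0872. The difference of 1.03 between the forms was called, except without AdV-IL4 mouse 2 (0.99) or AdV-IL4d2 mouse 3 (1.11), and was −0.04 in the poly-A scaling without trpn. Mmp14, a membrane protease, and Mmp2, a gelatinase that it activates, rose 1.61-fold and 1.66-fold with AdV-IL4 (adjusted p = 0.00317 and 0.00897). In the poly-A scaling without trpn they were at −0.10 and −0.06. Mmp2 had a ratio of 1.56 with AdV-IL4d2 (adjusted p = 0.0555), with groups that did not overlap, and Mmp14 a ratio of 0.98 (adjusted p = 0.954). Between the forms Mmp2 differed by 0.09 ± 0.15 (adjusted p = 0.816). Mmp14 was also higher with AdV-IL4 than with AdV-IL4d2, by 0.71 (adjusted p = 0.00938), but not called without AdV-IL4d2 mouse 3 (0.70), and it turned to −0.21 and −0.36 under the poly-A scalings.

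The cathepsin gene Ctsk and the elastase inhibitor gene Slpi were called with AdV-IL4 at limma adjusted p of 0.0414 and 0.0443, and neither call was stable. Ctsk, at a log2 difference of 0.85, lost its call without AdV-NULL mouse 1 (0.75) or 3 (0.62), AdV-IL4 mouse 1 (0.76) or 2 (0.74), or any AdV-IL4d2 mouse (0.85). Slpi, at 1.28, lost its call without AdV-NULL mouse 1 (0.90) or 2 (1.41), AdV-IL4 mouse 2 (1.11) or 3 (1.23), or AdV-IL4d2 mouse 1 (1.28). Its difference with AdV-IL4d2 was 1.51 ± 0.37, with groups that did not overlap (adjusted p = 0.0708), and that between the forms −0.23 ± 0.37 (adjusted p = 0.803). Ctsk was at −0.28 ± 0.24 with AdV-IL4d2 (adjusted p = 0.646). Between the forms, Ctsk was called at 1.13 (adjusted p = 0.0366), and lost that call without AdV-IL4 mouse 1 (1.05) or 2 (1.03) or without AdV-IL4d2 mouse 1 (1.09), 2 (1.19) or 3 (1.12). Without both AdV-NULL mouse 1 and AdV-IL4 mouse 2, the count of 6 was 3, with Mmp12, Ctss and Mmp14 still called. The inhibitors Timp1, Timp2 and Timp3 had differences of 0.37, −0.14 and −0.28 and were not called.

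**Figure D3:**
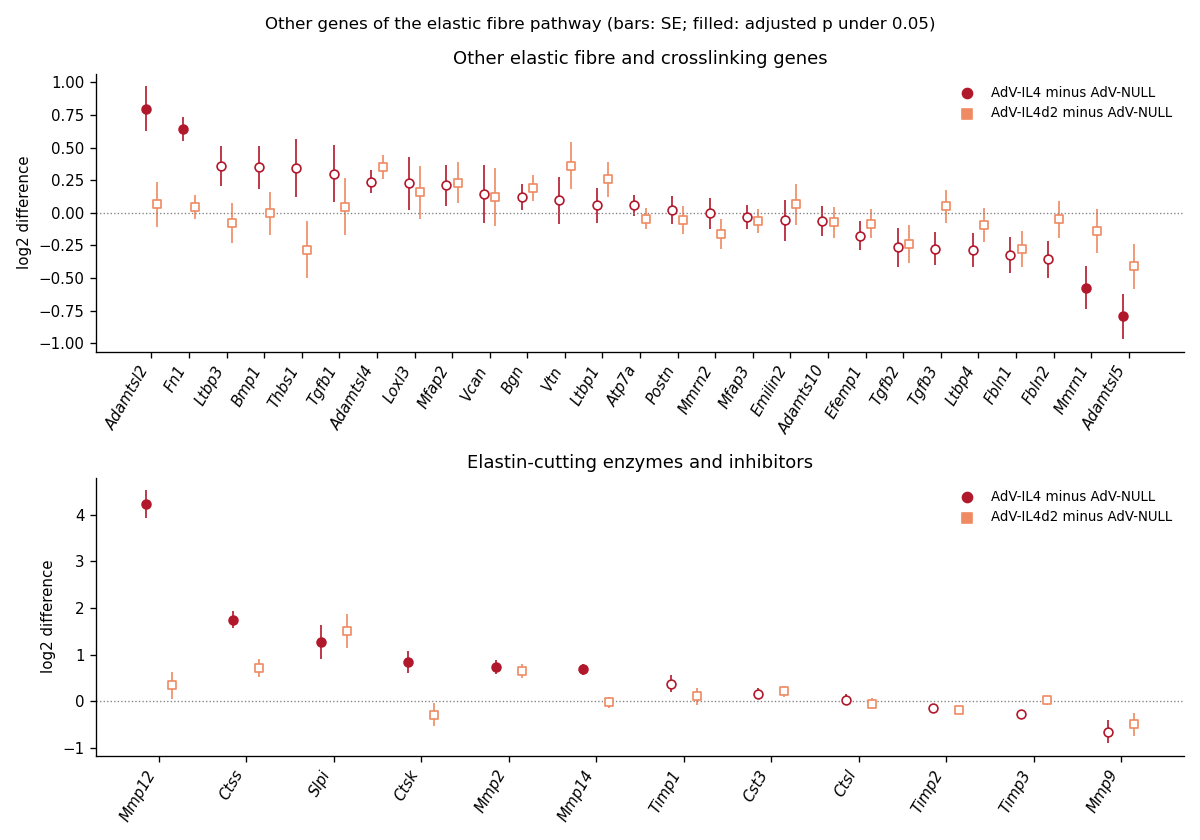
Log2 differences (signal + 16) against AdV-NULL of the 27 tested other elastic fibre and crosslinking genes (top) and the 12 tested elastin-cutting enzymes and inhibitors (bottom), with standard errors as bars. Circles are AdV-IL4, squares AdV-IL4d2, and filled symbols passed limma's adjusted p of 0.05, which no AdV-IL4d2 value did. Mmp12 stands highest at 4.23 with AdV-IL4. Under the poly-A scaling without trpn, the AdV-IL4 differences of Fn1, Mmp14 and Mmp2 turned negative.

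Markers of cell types that make elastic fibres were measured beside these genes. For AdV-IL4 against AdV-NULL, 10.7% of all tested probe sets were called as deposited, in either direction. The control scalings moved the median of all tested probe sets by −0.43, −0.64 and −0.77. Lower calls became more frequent among all of them, so added falls under these scalings are not particular to a cell type. Of 9 smooth muscle markers, 6 fell with AdV-IL4 against AdV-NULL, under the control scalings 7, 8 and 9. With AdV-IL4d2 limma called none of the 9, where 6 had an unadjusted p under 0.05, and 3, 1 and 1 fell under the control scalings. Without both AdV-NULL mouse 1 and AdV-IL4 mouse 2, 4 fell with AdV-IL4 and 2 with AdV-IL4d2. Their summed signal ran from 6921 to 12233 in AdV-IL4, 8835 to 15313 in AdV-IL4d2 and 19461 to 23030 in AdV-NULL lungs, so both cytokine groups lay below the controls. Of 13 fibroblast markers, 2 rose and 4 fell with AdV-IL4. Under the hybridisation and the 2 poly-A scalings 1, 1 and 0 rose and 9, 10 and 10 fell. The type I collagen gene Col1a1 rose 2.44-fold, and Dcn, the proteoglycan decorin, was 2.23-fold lower (limma adjusted p = 0.000245 and 8.40e-05). The fibroblast sums of 113494 to 130628 in AdV-IL4, 121749 to 127118 in AdV-IL4d2 and 119900 to 132221 in AdV-NULL lungs overlapped. Of 6 tested myofibroblast markers, Tnc, the gene of tenascin-C, rose 2.04-fold and Cthrc1 was 1.80-fold lower with AdV-IL4 (adjusted p = 0.000725 and 0.0128), and the sums overlapped. Under the poly-A scalings none of the 6 rose and 4 fell, and without both arrays Cthrc1 was not called.

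Mesothelial markers summed to 5286 to 7133 in AdV-IL4, 5762 to 7195 in AdV-IL4d2 and 6077 to 7118 in AdV-NULL lungs. Of the 4 tested, Krt19 was 1.77-fold lower with AdV-IL4 (limma adjusted p = 0.026) and none rose. Without both arrays none was called, and under the control scalings 1, 3 and 3 fell. As for the markers above, falls added by these scalings, here and below, go with the general shift of all tested probe sets. Of the 7 cartilage markers, Col2a1, Comp, Matn1 and Matn3 were below the array median on all 9 arrays, and their sums of 852 to 2051, 1125 to 1202 and 1040 to 1914 in AdV-IL4, AdV-IL4d2 and AdV-NULL lungs overlapped. Of 7 endothelial markers, Vwf and Cldn5 rose with AdV-IL4 against AdV-NULL, 1.42-fold and 1.37-fold, and Kdr and Tek were 1.62-fold and 1.34-fold lower (limma adjusted p = 0.00783, 0.00715, 0.00999 and 0.0332). Without both arrays 0 rose and 2 fell, and under the control scalings 0 rose and 4, 5 and 5 fell. Macrophage markers, of which 4 of 8 rose and 1 fell with AdV-IL4, 2 and 1 without both arrays, and 2 and 2, 2 and 3, or 1 and 4 under the control scalings, summed to 50713 to 56506 in AdV-IL4, 42639 to 49315 in AdV-IL4d2 and 39229 to 52876 in AdV-NULL lungs. No marker in these lists was at 0 on all arrays. The part of any of these cell types in the members' differences was not tested. Gapdh signal of the 3' over the 5' probe set, a sign of RNA quality, was 1.71 ± 0.143 on AdV-IL4, 1.46 ± 0.112 on AdV-IL4d2 and 1.28 ± 0.284 on AdV-NULL arrays (SD, n = 3 each). The same ratio for Actb was 3.23 ± 0.486, 2.58 ± 0.226 and 2.65 ± 0.324 in the same order. The part of RNA quality was not tested either.

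**Figure D4:**
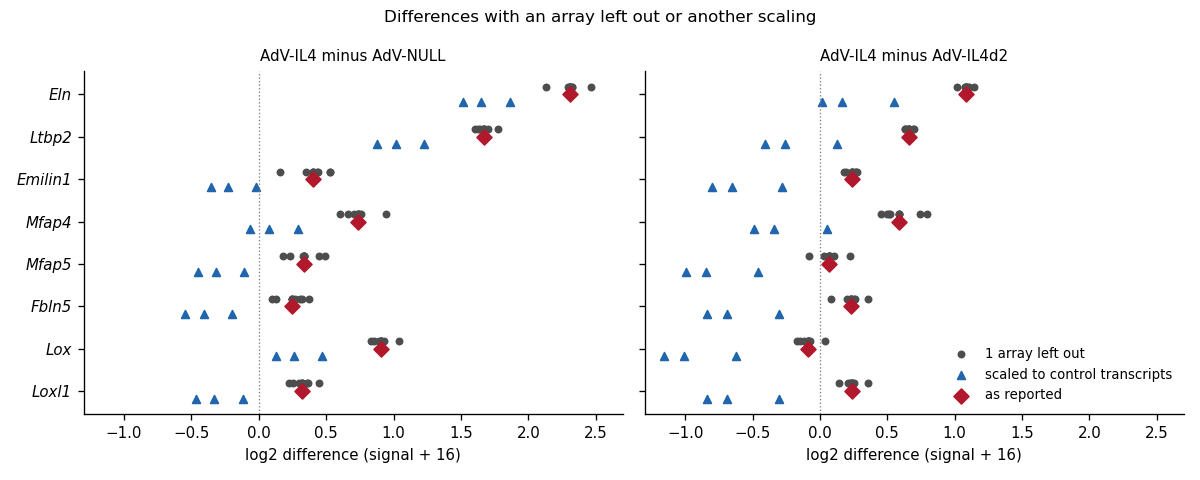
Log2 differences (signal + 16) of the 8 genes for AdV-IL4 minus AdV-NULL (left) and AdV-IL4 minus AdV-IL4d2 (right). Diamonds are the values as reported, dots the 9 fits with 1 array left out, and triangles the 3 scalings to control transcripts. For AdV-IL4 minus AdV-NULL, Eln stays between 1.51 and 2.46 and Ltbp2 between 0.88 and 1.77, while Emilin1, Mfap5, Fbln5 and Loxl1 turn negative in the control scalings, and Mfap4 in 1 of them. For AdV-IL4 minus AdV-IL4d2, Eln stays positive in all 3 control scalings, Ltbp2 and Mfap4 turn negative in 2 of them, and the other genes are negative in all 3.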

How the data were processed

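The deposited values are signal intensities per probe set and array on a linear scale. Per the submitters' processing notes, the tools were MAS5, GCOS and Affymetrix Expression Console 2.0, with no roles stated. A 2% trimmed mean of 500.002 on every array shows that the authors scaled each to the same level. A change shared by most genes is therefore not visible. Detection calls and probe sequences were not used here, and the number of arrays limits the precision.

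Symbols came from the platform annotation, and the Entrez identifiers of all 15 member probe sets were found in the gene table, with 0 symbols out of date. Signals were transformed to log2(signal + 16), which understates changes of dim probe sets, and 64 control probe sets were left out. The 23824 probe sets above their array's median on at least 3 of 9 arrays were fitted in 1 model of all 9 arrays using limma 3.58.1 (lmFit, then eBayes with a trend) under R 4.3.3. All tests were two-sided, and Benjamini-Hochberg adjustment ran over all probe sets of a comparison. The tested probe set with the highest mean log2 signal stood for a gene. The fit was tested on simulated data.

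The members and lists were chosen with earlier results of these data known. Named genes were all members, the called genes of the pathway lists and the 5 genes most like Eln. Other list genes, the markers and Tubb2a were given values after those were seen. Nothing says that mouse numbers pair mice across groups. Alternatives were other pseudocounts, filters, scalings and fits, and arrays left out. The promoter sequence is RefSeq's (GRCm38.p6).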

Additional observations from a re-analysis of the deposited data

Results flagged for a closer look

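Eln was flagged because its response differed between the cytokine forms by the test of the difference itself, AdV-IL4 minus AdV-IL4d2, which was 1.09 on the log2 scale (limma adjusted p = 0.00299, every AdV-IL4 mouse above every AdV-IL4d2 mouse). Ltbp2 was flagged in the same way, with a difference of 0.66 (adjusted p = 0.00802) and no overlap of the groups. The Il4 signal, on a single probe set, was 301 to 379 in AdV-IL4 and 499 to 1172 in AdV-IL4d2 lungs. Whether this probe set reads both forms equally was not tested, nor was the part of the Il4 level in these differences. Groups of 3 were not screened for single mice that stand apart.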

How the results depend on the processing

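Of the members' 504 log2 differences under the alternatives, 444 kept their direction and side of the threshold and 41 changed sign. Calls were lost in 17, of which 3 also changed sign, and gained in 15, of which 10 also changed sign. With other pseudocounts, no filter, quantile normalization, eBayes without trend or only the groups compared, 4, 3 and 2 genes were called as in the report, for AdV-IL4 against AdV-NULL, AdV-IL4d2 against AdV-NULL and AdV-IL4 against AdV-IL4d2. Leaving out 1 array gave 3 to 5, 3 and 1 to 3 genes. Causes were not tested, other than fewer arrays or the scaling itself.

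Probe sets called for AdV-IL4 against AdV-NULL numbered 7451, 14702 and 18123 with the hybridisation controls, the poly-A controls and the poly-A controls without trpn, 1068 without both AdV-NULL mouse 1 and AdV-IL4 mouse 2, and 1313 to 2210 with 1 array left out. For AdV-IL4d2 against AdV-NULL they were 574 and 519 with the poly-A scalings, 195 without trend, 200 without both arrays and 156 to 417 with 1 left out. For AdV-IL4 against AdV-IL4d2 they were 11163, 21357 and 22503 with the 3 scalings, 244 without the filter, 165 without trend, 237 without both arrays and 110 to 446 with 1 left out. Genes called were 2 with either of the first scalings for AdV-IL4 against AdV-NULL and 3 with the third, where Fbln5 was lower, and 5 and 6 with the poly-A scalings between the forms, all of them lower. Most probe sets called in these comparisons under these scalings were lower too. The scaling without trpn was chosen after seeing the data, as trpn signals lay near 0.

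For AdV-IL4 against AdV-NULL, the signs turned with the hybridisation, poly-A and poly-A without trpn scalings to −0.023, −0.23 and −0.36 for Emilin1, −0.20, −0.41 and −0.55 for Fbln5, −0.12, −0.33 and −0.47 for Loxl1 and −0.11, −0.32 and −0.45 for Mfap5, and with the last to −0.062 for Mfap4. Between the forms they were −0.28, −0.66 and −0.80 for Emilin1, −0.30, −0.69 and −0.84 for Fbln5, −0.30, −0.69 and −0.84 for Loxl1 and −0.46, −0.85 and −0.995 for Mfap5, and with the poly-A scalings −0.26 and −0.41 for Ltbp2 and −0.34 and −0.49 for Mfap4. With the mean of a gene's probe sets, Lox was 0.077 between the forms and Loxl1 −0.022 for AdV-IL4d2.

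With 1 array left out, signs turned for uncalled differences near 0. Between the forms, Lox ran from −0.17 to 0.040 (positive without AdV-IL4 mouse 1) and Mfap5 from −0.083 to 0.22 (negative without AdV-IL4 mouse 2). For AdV-IL4d2 against AdV-NULL, Fbln5 ran from −0.11 to 0.087 (negative without AdV-NULL mouse 1 or AdV-IL4d2 mouse 2), Mfap4 from −0.0063 to 0.23 (negative without AdV-IL4d2 mouse 2) and Emilin1 from −0.081 to 0.29 (negative without AdV-NULL mouse 1). Without both arrays, Emilin1 and Fbln5 were −0.081 and −0.11 for AdV-IL4d2, Fbln5 −0.024 for AdV-IL4, and Mfap5 −0.083 between the forms.

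With the mouse number as a replicate block, 2427, 312 and 384 probe sets and 4, 3 and 2 genes were called in the 3 comparisons. Same-numbered arrays correlated at −0.0694 to 0.116 in their deviations from the group means, and other arrays of different groups at −0.133 to 0.132. In all, 5 of 9 arrays correlated best with their own number. Between AdV-IL4 and AdV-IL4d2, same-numbered arrays were at 0.116, 0.102 and 0.071, and all other pairs were negative. The numbers were not taken as pairs because nothing says that they pair mice. Whether arrays of 1 number shared their handling was not tested.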

Other observations

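Loxl2, a lysyl oxidase that also acts on collagen, could be read only through probe sets that the annotation assigns to both Loxl2 and Gm21451, so the values cannot be given to either gene. The brighter one read 633, 509 and 600 in AdV-IL4 mice, 476, 594 and 542 in AdV-IL4d2 mice, and 466, 495 and 510 in AdV-NULL mice. AdV-IL4 mouse 2 lay just below AdV-NULL mouse 3 on it. Its log2 differences against AdV-NULL were 0.23 ± 0.12 with AdV-IL4 and 0.12 ± 0.12 with AdV-IL4d2 (limma adjusted p = 0.262 and 0.713). The dimmer one did not pass the filter and lay between 7.01 and 82.9 on the 9 arrays.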
